A study of Homo sapiens with 4 samples.

Results

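Heparan sulfate proteoglycans of the glypican and syndecan families, with perlecan beside them, were examined in MIA PaCa-2 cells, an epithelial tumour line established from a human pancreatic ductal adenocarcinoma. The set was chosen by gene symbol and lists the glypicans GPC1, GPC4 and GPC6, the syndecans SDC1, SDC2, SDC3 and SDC4, and perlecan, HSPG2. GPC1 is the host gene of miR-149, the microRNA followed in the study, and the other genes were set beside it as carriers of the same sugar chain. Of the 8 genes listed, 6 have a row among the 16834 genes of the expression table, and GPC4 and SDC2 were not analysed here. The study asked how neobractatin (NBT), a compound isolated from Garcinia bracteata, and trametinib, an inhibitor of the kinase MEK, act together. The 4 conditions were control cells, for which the labels name no vehicle, 1 µM NBT, 5 µM trametinib, and both drugs at these doses, each over 12 h, and all were described as wild type in genotype. Each condition gave 1 RNA library, read on a BGISEQ-500 instrument. No value therefore has a replicate check, differences between libraries include an unmeasured variation between cultures, and no p-value is given. The cell line field of the labels carries a different number after MIA PaCa in each library, while the titles name MIA PaCa-2 in all of them, and the cell type field reads adenoma.

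Heparan sulfate proteoglycans are core proteins with long sulfated sugar chains that hold growth factors at the cell surface and in the matrix. Glypicans are tied to the outer leaflet of the membrane by a lipid anchor, syndecans cross the membrane and carry a short cytoplasmic tail, and perlecan is a large secreted protein of basement membranes. In pancreatic cancer GPC1 and SDC1 are known as cell surface proteins of the tumour cells, and fibroblast growth factors need heparan sulfate to bind their receptors well.

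GPC1 lies on the forward strand of GRCh38 at chr2:240435663-240468076. The hairpin of MIR149 lies on the same strand at chr2:240456001-240456089, within intron 1 of the 9-exon transcript ENST00000264039.6 of GPC1. This intron runs from 240436085 to 240459029, and the hairpin starts 19917 bases into it. The mature sequences from RefSeq are shown because they are what connects this gene to the microRNA of the study, with the seed (bases 2 to 8) in capitals.
hsa-miR-149-5p: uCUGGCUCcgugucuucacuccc
hsa-miR-149-3p: aGGGAGGGacgggggcugugc
The 5p arm lies at 240456015 to 240456037 and the 3p arm at 240456056 to 240456076, and their seeds differ. MIR149 and GPC1-AS1, a long noncoding RNA gene that overlaps GPC1, have no row in the table, so the microRNA itself was not analysed here and the values below are those of the host mRNA. The next gene downstream, ANKMY1, starts 556 bases after the end of GPC1. ANKMY1 had 352, 401, 264 and 412 reads in the control, NBT, trametinib and combination libraries. It was lowest with trametinib, where GPC1 was highest, and highest with the combination, where GPC1 was above control. Its NBT and combination libraries were within counting error of the control.

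SDC1 (chr2:20200797-20225475), SDC4 (chr20:45325288-45348424), SDC3 (chr1:30869466-30909735) and HSPG2 (chr1:21822244-21937310) lie on the reverse strand, and GPC6 (chr13:93216529-94408020) on the forward strand. The last part of HSPG2 overlaps LDLRAD2, which had 5, 0, 16 and 5 reads in the control, NBT, trametinib and combination libraries. Whether the libraries kept strand is not given in the sources used here. All 6 genes matched a RefSeq promoter window, running from 250 bases before to 50 bases after the annotated start (GRCh38.p14). Those of GPC1 and SDC4, which had the same order of levels across the libraries, and the first of the pair listed for SDC1, which had another order, are shown. Capitals mark GC boxes (GGGCGG on either strand), the letters bound by SP family factors.
GPC1 promoter, chr2:240435413-240435712, forward strand: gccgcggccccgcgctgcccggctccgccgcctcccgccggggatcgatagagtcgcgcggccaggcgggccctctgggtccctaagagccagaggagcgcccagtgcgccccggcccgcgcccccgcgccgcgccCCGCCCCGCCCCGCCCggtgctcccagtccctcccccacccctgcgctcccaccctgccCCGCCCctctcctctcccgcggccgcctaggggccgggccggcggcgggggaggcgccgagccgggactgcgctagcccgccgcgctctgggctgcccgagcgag
SDC4 promoter, chr20:45348375-45348674, reverse strand: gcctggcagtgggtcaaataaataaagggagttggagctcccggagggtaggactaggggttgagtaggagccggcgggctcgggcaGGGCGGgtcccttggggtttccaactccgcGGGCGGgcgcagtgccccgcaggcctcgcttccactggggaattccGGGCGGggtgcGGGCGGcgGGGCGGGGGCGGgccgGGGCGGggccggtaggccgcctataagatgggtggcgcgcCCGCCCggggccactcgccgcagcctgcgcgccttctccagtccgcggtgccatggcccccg
SDC1 promoter, chr2:20225426-20225725, reverse strand: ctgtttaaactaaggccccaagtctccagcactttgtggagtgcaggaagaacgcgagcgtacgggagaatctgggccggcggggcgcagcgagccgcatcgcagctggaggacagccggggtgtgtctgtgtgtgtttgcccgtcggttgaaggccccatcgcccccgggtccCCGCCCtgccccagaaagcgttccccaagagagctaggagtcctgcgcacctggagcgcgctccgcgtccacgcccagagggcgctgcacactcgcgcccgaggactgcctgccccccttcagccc
With overlapping matches counted, the GPC1 window holds 4 GC boxes, that of SDC4 8, that of SDC3 6, that of HSPG2 10, each of the SDC1 windows 1, and that of GPC6 0. Among all 35116 promoter windows, 45.0% hold at least 1 GC box, 9.06% at least 4, 2.86% at least 6, 0.812% at least 8 and 0.214% at least 10. Windows rich in G and C hold more such letters. The GC content was 83.3% for GPC1, 74.0% for SDC4, 84.0% for SDC3 and 83.3% for HSPG2, against 67.7% and 70.7% for SDC1, 40.0% for GPC6 and a median of 58.7% over all windows. Searched on both strands, AP-1 letters (TGANTCA, in 7.71% of all windows), ETS letters (CCGGAAGT, 4.14%) and ATF4 letters (TGATGNAA, 3.62%) were in none of the members' windows. Antioxidant response letters (TGACNNNGC, 13.3%) occurred only in that of GPC6. These are matches of letters and not measured binding.

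The libraries held 18776212 (control), 19437747 (NBT), 18949915 (trametinib) and 19614763 (combination) estimated reads in genes. The trametinib labels were checked on DUSP6, a phosphatase induced by MEK signalling, which had 329, 521, 14 and 9 reads in that order. HMOX1, a heme oxygenase induced by oxidative stress, had 121, 4825, 382 and 44631. The study names no response of HMOX1 to NBT, so these counts are no independent check of the NBT labels. Of 6 epithelial marker genes, 5 were in the table, namely KRT8, KRT18, KRT7, EPCAM and CDH1, while KRT19 had no row. KRT7 had only 77, 71, 39 and 33 reads in the same order of libraries. The summed level of the 5 genes was highest in control (7274 TPM) and lowest under both drugs (2765 TPM). Most of that sum was KRT8, with 63594, 57181, 38101 and 26811 reads, and KRT18, with 41334, 38414, 14162 and 14049. EPCAM had 3502, 3275, 3113 and 3383 reads and CDH1 3912, 2539, 4086 and 2804, so the list did not move together. Markers of fibroblasts, endothelium and acinar cells were at or near 0. The summed level was at most 1.88 TPM for 3 fibroblast genes, 0.670 TPM for 3 endothelial genes and 0.0800 TPM for 1 acinar gene. The 3 leukocyte genes summed to between 96.9 and 140.2 TPM, nearly all of it CD68, a lysosomal protein found also outside leukocytes, while PTPRC had at most 17 reads. In the trametinib library COL1A1 rose from 45 to 98 reads, VWF from 3 to 25 and CD3E from 0 to 55. In the combination library these genes had 53, 6 and 29 reads, and with NBT 27, 4 and 0. Their part in the members' values was not tested.

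The members' levels in TPM, which is scaled to transcript length so that genes can be compared, fell into 3 ranges. SDC1, SDC4 and GPC1 stood at 53.2 TPM or more in every library, HSPG2 and SDC3 between 2.76 and 7.98 TPM, and GPC6 at 0.05 TPM or less. The 3 most abundant genes made up 97.0 to 98.2% of the members' summed TPM. That sum was 433.9 TPM for control, 369.4 under NBT, 523.0 under trametinib and 410.0 under both drugs.

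**Figure D1:**
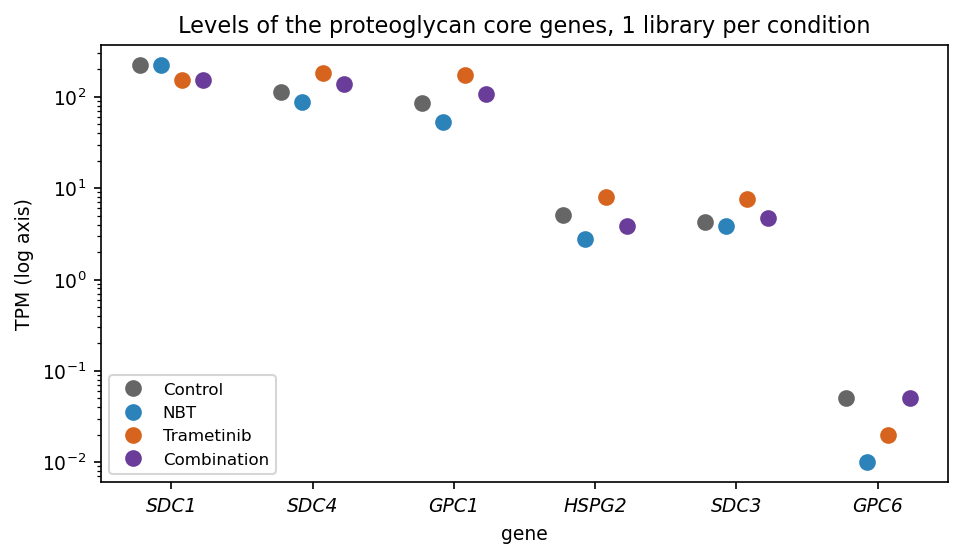
Level of each of the 6 genes in TPM (log axis) in the control, NBT, trametinib and combination libraries, 1 point a library. SDC1 is lower in the trametinib and combination libraries (153.8 and 154.3 TPM) than in the other two, while SDC4, GPC1, HSPG2 and SDC3 have their lowest point with NBT and their highest with trametinib.

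The order of the leading genes differed between libraries. In the control library SDC1 stood at 224.3 TPM, SDC4 at 114.5 and GPC1 at 85.7, so that SDC1 was 2.62 times GPC1. In the NBT library the order was the same, with SDC1 at 222.6, SDC4 at 86.9 and GPC1 at 53.2 TPM, a ratio of 4.19 between SDC1 and GPC1. In the trametinib library SDC4 came first with 181.9 TPM, GPC1 next with 171.7 and SDC1 last of these with 153.8. In the combination library SDC1 led again with 154.3 TPM, ahead of SDC4 with 139.7 and GPC1 with 107.4. The share of SDC1 in the members' TPM was thus 51.7% (control), 60.3% (NBT), 29.4% (trametinib) and 37.6% (combination). The joint share of GPC1 and SDC4 was 46.1, 37.9, 67.6 and 60.3% in the same order. Among all 16834 genes, GPC1 ranked 2001 by TPM in control cells, 2936 under NBT, 938 under trametinib and 1493 under both drugs.

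For changes between libraries, the estimated reads were rounded and scaled to each library's sum, and log2 ratios were taken after adding 0.5 reads. Each ratio of a member by this rule is given with a 95% counting interval (Clopper-Pearson), which covers counting error only and no variation between cultures. Most ratios of other genes are given without one. Reads copied by PCR are not independent molecules, so the interval can be too narrow even for counting error. A gene was called where the exact binomial comparison of a pair of libraries had a Benjamini-Hochberg adjusted value of at most 0.05 and the ratio was at least 1 on the log2 scale, the limits used in the study. A call describes a pair of libraries and not the conditions. In bulk RNA, fewer cells that express a gene and less of its RNA per cell cannot be told apart. The comparisons with control share the control library.

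GPC1, the lipid-anchored glypican best known in pancreatic tumours, was lowest with NBT and highest with trametinib. Control cells gave 3033 reads, NBT 2040, trametinib 6225 and the combination 4075. The combination library thus lay between the single drugs and above the control. Against control, the log2 ratio of GPC1 was -0.62 (interval -0.70 to -0.54) with NBT, 1.02 (0.96 to 1.09) with trametinib and 0.36 (0.29 to 0.43) with both drugs. The trametinib value, a 2.03-fold rise, was the only call of a member against control, where 3.82% of the 16197 genes tested were called higher. It sits at the limit. With edgeR's TMM scaling the ratio was 0.95 and with DESeq2's size factors 0.96, and GPC1 was then not called. GPC6, a glypican of mesenchymal tissues, had 6 reads in control, 1 in each single-drug library and 7 in the combination, and every interval of its ratios included 0. A difference in GPC6 was not detectable at this depth.

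Among the syndecans, SDC4, the member found at focal adhesions in most cell types, followed the order of GPC1. SDC4 counted 2819 reads in control, 2323 under NBT, 4586 under trametinib and 3699 under both drugs. Its log2 ratio to control was -0.33 (-0.41 to -0.25) with NBT, 0.69 (0.62 to 0.76) with trametinib and 0.33 (0.26 to 0.40) with both drugs. SDC3, known mainly from the nervous system, was a minor transcript with 206, 203, 375 and 242 reads in the same order. For SDC3 the interval excluded 0 with trametinib alone, at 0.85 (0.60 to 1.10), while the values with NBT, -0.07 (-0.36 to 0.22), and with the combination, 0.17 (-0.10 to 0.44), were within counting error of 0.

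SDC1, the main syndecan of epithelial cells, behaved differently. SDC1 counted 6616 reads in control and 7010 under NBT, but 4626 under trametinib and 4884 under both drugs. The libraries without trametinib were thus high and those with it low. The log2 ratio of SDC1 to control was 0.03 (-0.02 to 0.08) with NBT, -0.53 (-0.58 to -0.48) with trametinib and -0.50 (-0.55 to -0.45) with both drugs. The combination and trametinib libraries differed by 0.03 (-0.03 to 0.09), within counting error.

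Perlecan, HSPG2, had the lowest ratio under NBT of the 5 members with at least 100 reads in each library. HSPG2 counted 707 reads in control, 412 under NBT, 1130 under trametinib and 568 under both drugs. Its log2 ratio to control was -0.83 (-1.01 to -0.65) with NBT, 0.66 (0.53 to 0.80) with trametinib and -0.38 (-0.54 to -0.22) with both drugs, so the combination was below control here, unlike for GPC1 and SDC4.

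**Figure D2:**
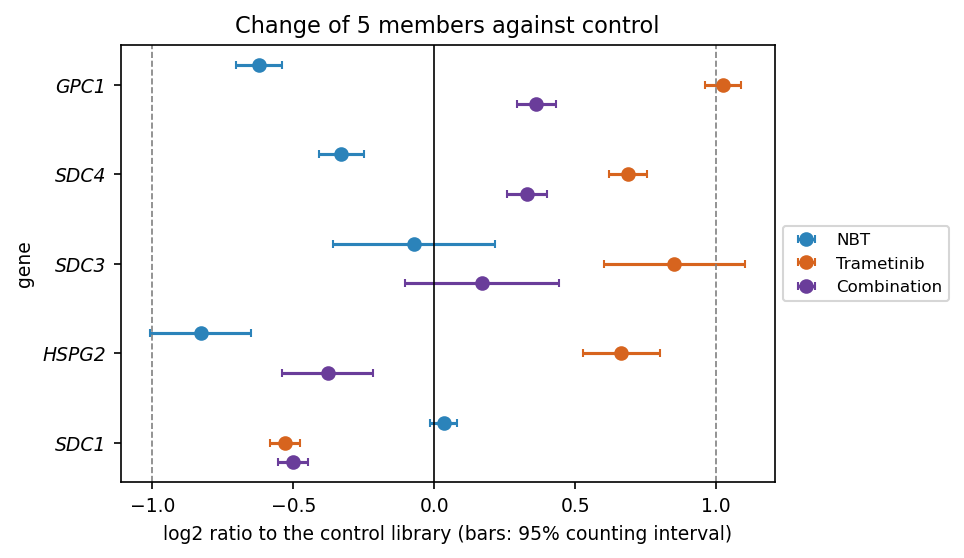
Log2 ratio to the control library for 5 genes with NBT, trametinib and the combination, with bars for the 95% counting interval and dashed lines at the call limit of 1. GPC1, SDC4 and HSPG2 lie left of 0 with NBT, GPC1, SDC4, SDC3 and HSPG2 lie right of 0 with trametinib, and SDC1 lies left of 0 with trametinib and with both drugs.

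Counted over the 6 genes, 0 were called against control with NBT (2.61% of all genes tested), 1 with trametinib (5.96%) and 0 with both drugs (8.42%). By the counting interval alone, NBT had 3 members below 0 and 0 above, where 21.6% and 19.6% of all genes lay. Trametinib had 4 above 0 and 1 below, beside 28.3% and 19.3% of all genes, and the combination had 2 on each side, beside 27.9% above and 25.2% below. These shares include genes with few reads, whose intervals are wide. They are therefore low for a comparison with members that have many reads. The median log2 ratio of the members was -0.48 with NBT, 0.68 with trametinib and 0.16 with both drugs, beside medians of -0.01, 0.08 and 0.05 over all genes tested. Without GPC6, which had at most 7 reads, the medians were -0.33, 0.69 and 0.17. GPC1, SDC4, SDC3 and HSPG2, 4 of the 5 members with at least 100 reads in each library, were lowest with NBT and highest with trametinib, a pattern of 13.8% of the 9986 genes with that many reads. For GPC1, SDC4 and SDC3 the whole order was NBT, control, combination, trametinib, as for 6.52% of those genes, although SDC3 did not differ between NBT, control and combination beyond counting error.

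Setting the treated libraries against each other showed the distance between the drugs. NBT against trametinib called 3 members lower and 0 higher, where 8.02% of genes were called and 5.05% called lower. These were GPC1 at -1.65 (-1.72 to -1.57), HSPG2 at -1.49 (-1.66 to -1.33) and SDC4 at -1.02 (-1.09 to -0.95). SDC4 was not called after TMM scaling (-0.94) or with DESeq2's size factors (-0.96). SDC1 was higher with NBT than with trametinib by 0.56 (0.51 to 0.62).
In the combination against trametinib, 4 members had an interval below 0. Without a log2 limit, the same 4 members were called in this comparison, as were 7428 of all 16343 genes tested, in either direction. The ratio of the combination to trametinib was -0.66 (-0.72 to -0.60) for GPC1, -0.36 (-0.42 to -0.30) for SDC4 and -0.68 (-0.92 to -0.44) for SDC3. HSPG2 fell by 1.04 on the log2 scale (interval -1.19 to -0.90) and was the only call, where 6.11% of genes were called and 3.55% called lower. With TMM scaling its ratio was -0.99, short of the limit. In the combination against NBT, 0 members were called (4.36% of genes called). GPC1 was at 0.98 (0.91 to 1.06), just under the limit, and passed it at 1.01 when TPM was used. SDC4 was at 0.66 (0.58 to 0.73), HSPG2 at 0.45 (0.26 to 0.64), SDC3 at 0.24 (-0.03 to 0.52) and SDC1 at -0.53 (-0.59 to -0.48).

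For each gene the combination's log2 ratio to control was compared with the sum of the ratios of NBT and trametinib. GPC1 was at 0.36 where the sum was 0.40, a departure of -0.04 (-0.14 to 0.06, from the summed counting variance of the 4 libraries). SDC4 was at 0.33 where the sum was 0.36, a departure of -0.03 (-0.13 to 0.07). SDC1 was at -0.50 where the sum was also -0.50, with an interval of the departure from -0.08 to 0.07. For these 3 abundant genes the combination lay within counting error of the sum. HSPG2 departed by -0.21 (-0.44 to 0.01), and for SDC3 the combination was below the sum by a departure of -0.61 (-0.97 to -0.25). Among the 9986 genes with at least 100 reads in each library, the interval of the departure excluded 0 for 45.4%. The value for GPC6, 4.44, rests on libraries with 1 read and is 0.77 when computed from TPM.

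**Figure D3:**
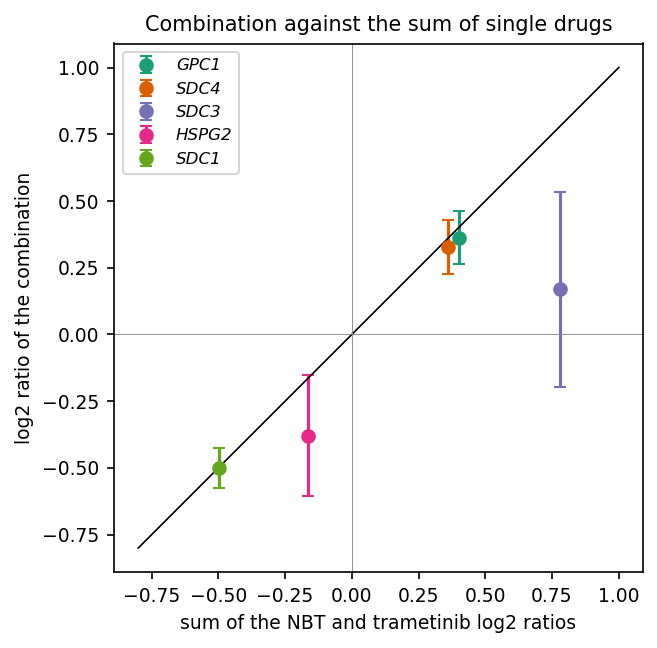
Log2 ratio of the combination library (vertical axis) against the sum of the NBT and trametinib log2 ratios (horizontal axis) for 5 genes, with the 95% counting interval of the departure as bars and a line where both are equal. GPC1, SDC4 and SDC1 lie on the line, HSPG2 below it with an interval that reaches it, and SDC3 below it.

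The reads of each gene were also divided among RefSeq transcripts in the deposited estimates. GPC1 has a curated transcript, NM_002081.3, and a predicted model, XM_011510976.2. The predicted model was listed with 0 reads in the control and NBT libraries, 452.0 with trametinib and 78.5 with the combination. It took 7.26% of the reads of GPC1 with trametinib (interval 6.63 to 7.93%) and 1.91% with the combination (1.52 to 2.38%). At 3 reads per library, a count of 0 would be a share of 0.0989% in the control and 0.147% with NBT. Set against 3 control reads, the trametinib library would be 149-fold higher and the combination 24.9-fold higher. These folds leave out the counting error of the higher library and are no minimum. The counting interval starts below them, at a log2 ratio to control of 6.92 with trametinib and 4.30 with the combination. A 0 here also depends on how the estimation divided reads that fit several transcripts, which the interval does not cover. NM_002081.3 alone had a log2 ratio of 0.92 (0.85 to 0.98) with trametinib, below the call limit that the gene as a whole passed.
SDC4 also had a curated transcript and a predicted model. The model XM_011528977.2 had 209.9, 114.9, 575.3 and 121.9 reads in the control, NBT, trametinib and combination libraries, or 7.45, 4.95, 12.5 and 3.30% of the gene. It was thus highest with trametinib, like that of GPC1, but below control with the combination (-0.84, interval -1.18 to -0.52). The main transcript NM_002999.4 was above control there (0.39, interval 0.32 to 0.47).
HSPG2 was divided between NM_005529.7 and NM_001291860.2. The latter had 163.8 reads in the control and 84.6 with NBT, or 23.2% and 20.6% of the gene. It was listed with 0 reads in both libraries with trametinib. At 3 reads per library, this would be a share of 0.265% with trametinib and 0.528% with both drugs. NM_005529.7 alone was at 1.04 (0.90 to 1.19) with trametinib and at 0.00 (-0.17 to 0.17) with the combination.
SDC1 had reads on 5 transcripts. NM_002997.5 took 73.3, 64.7, 65.8 and 73.0% in the order control, NBT, trametinib and combination, and XM_005262622.2 took 19.3, 31.4, 26.1 and 17.1%. NM_001006946.1 had 397.0, 115.0, 307.4 and 290.1 reads and was low with NBT alone (-1.83, interval -2.15 to -1.53), while the gene total was within counting error of the control. SDC3 was mostly XM_011542466.1, and NM_014654.4 had 18.4, 55.1, 73.5 and 0 reads. These shares and the counts of 0 depend on how the estimation divided reads that fit several transcripts. The part of that division in them was not tested.

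**Figure D4:**
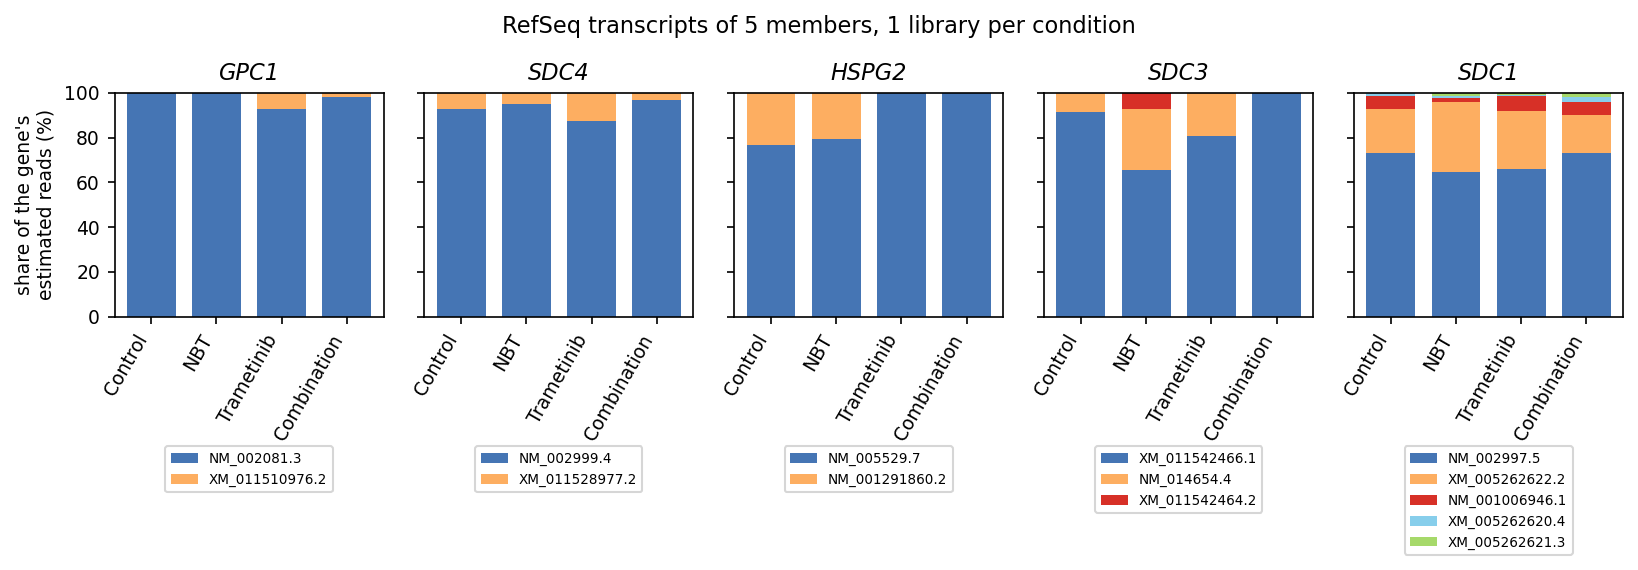
Share of each gene's estimated reads (%) taken by each RefSeq transcript, as stacked bars for the control, NBT, trametinib and combination libraries in 5 panels. The second transcript of GPC1 appears only in the libraries with trametinib (7.26 and 1.91%), and the second transcript of HSPG2 only in those without it (23.2 and 20.6%).

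The genes most like each member were found by the Euclidean distance over the 3 log2 ratios to control, among the 9986 genes with at least 100 reads in each library. The nearest to GPC1 were SHFL (distance 0.130), LRP1 (0.201) and MVP (0.202), and 1 gene lay within 0.2 of it. HSPG2 had 2 genes within 0.2 and was nearest to RTN4R (0.147), ACSL3 (0.165) and NRBP2 (0.217). The patterns of the others were more common. SDC4 had 37 genes within 0.2, led by CALD1, KIAA1522 and SAMD9, SDC3 had 31, led by STARD5, TRNP1 and ANXA8L1, and SDC1 had 95, led by EBNA1BP2, ENTR1 and GFOD1. Among the members, SDC3 and SDC4 were closest (0.344), then GPC1 and SDC4 (0.446), and GPC1 and SDC1 were the farthest apart (1.89). The libraries behind these distances are shared, and counting error adds to the distances of SDC3.

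The members were set beside 10 lists of genes that build, modify, cut and use heparan sulfate, 105 genes of which 95 were in the table. NBT called 2 of these higher and 4 lower among 90 tested, trametinib 5 higher and 9 lower among 92, and the combination 4 higher and 13 lower among 94. The calls made up 6.67, 15.2 and 18.1% of the genes tested, beside the backgrounds of 2.61, 5.96 and 8.42%. The lists were chosen with earlier results of these data known, and the backgrounds include many genes with few reads. The difference between these shares is therefore no result about heparan sulfate genes.

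**Figure D5:**
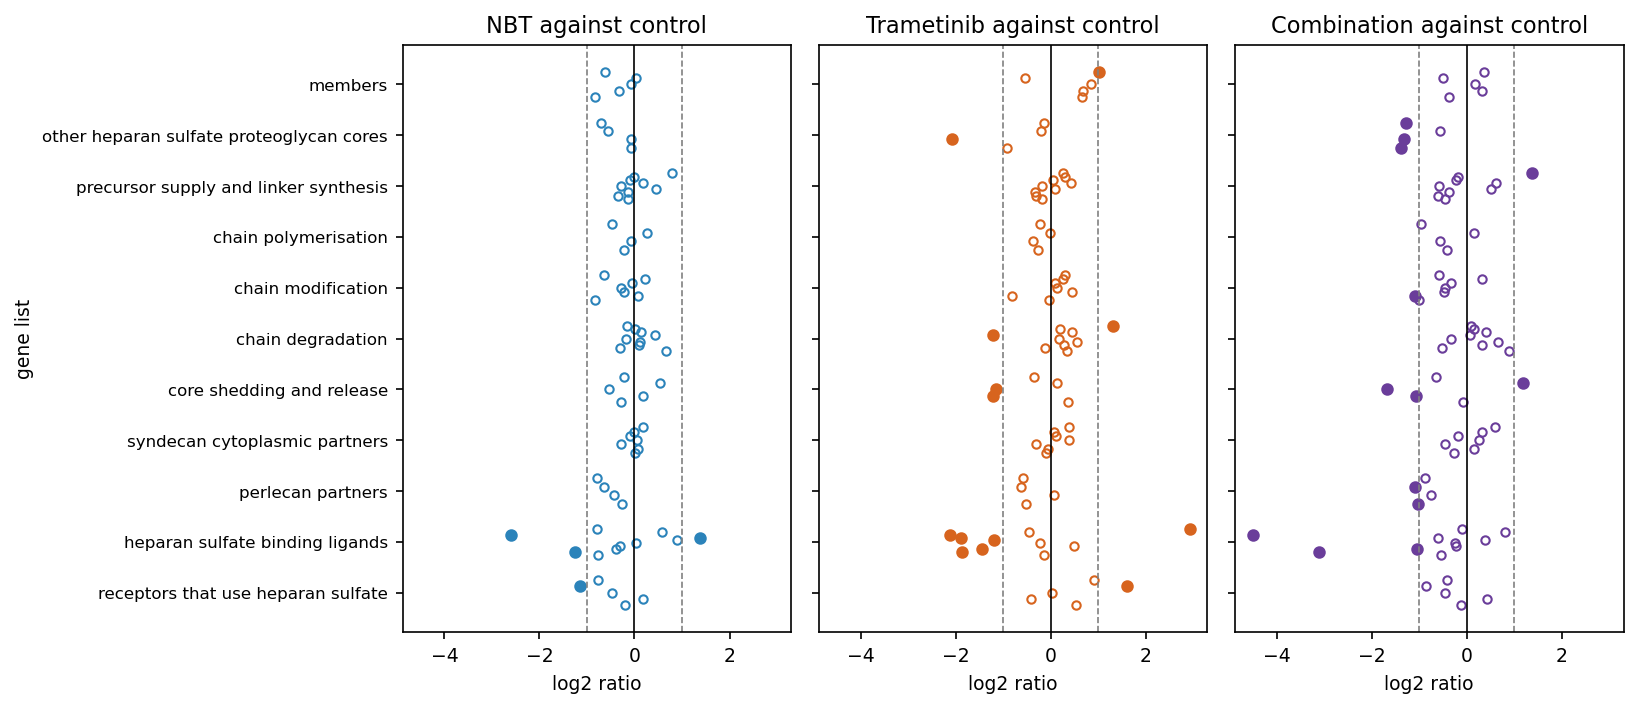
Log2 ratio to the control library of the members and of the genes of 10 lists with at least 100 reads in at least 1 library, 1 row a list, with filled points for called genes and dashed lines at the limit of 1. The points farthest from 0 are ligands, with FGFBP1 at -4.51 and THBS1 at -3.12 in the combination panel and FGF1 at 2.93 in the trametinib panel.

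Of 10 other proteoglycan cores tested, 4 were called lower and 1 higher with the combination, 1 in each direction with trametinib and 0 with NBT. Of all genes tested, 8.42, 5.96 and 2.61% were called in either direction in these comparisons. CD44, a hyaluronan receptor with a variant that carries heparan sulfate, had 26090, 25676, 6286 and 10946 reads in the control, NBT, trametinib and combination libraries. CD44 was low in both libraries with trametinib, at -2.07 with trametinib and -1.32 with the combination, the direction of SDC1 and opposite to GPC1. Agrin, AGRN, a basement membrane core like perlecan, had 8894, 5626, 8105 and 3836 reads and was called in the combination alone (-1.28). NRP1, a coreceptor of semaphorins and VEGF, was at -1.38 there. TGFBR3 (39 to 18 reads) was the other core called lower and SPOCK1 (13 to 75 reads) the one called higher in the combination, and SPOCK2 (29 to 78 reads) was called higher with trametinib. These low genes are named after their values were seen.

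Among the enzymes that build the chain, read beside the backgrounds above, 1 of 12 genes of precursor supply and linker synthesis was called against control. This was UGDH, which makes the UDP-glucuronic acid used in the chain, with 739, 1322, 892 and 1997 reads and a log2 ratio of 1.37 with the combination. Of the chain polymerisation genes 0 were called against control in any comparison, with 4 tested for each single drug and 5 for the combination. Among 15 chain modification genes in the table, HS3ST1, a 3-O-sulfotransferase, was the one called against control (307, 333, 175 and 151 reads). With the combination it was at -1.08 (interval -1.38 to -0.80).
Among 9 genes of chain degradation, HPSE, the heparanase that cuts the chain outside the cell and also favours syndecan shedding, had 188, 175, 473 and 208 reads. HPSE was high with trametinib alone (1.32) and, like GPC1, lower with the combination than with trametinib. SGSH, a lysosomal sulfamidase, had 485, 682, 212 and 534 reads and was called lower with trametinib (-1.21). Of all genes tested with trametinib, 5.96% were called in either direction.
Genes for shedding and release of cores were called in both directions. Of all genes tested, 2.61, 5.96 and 8.42% were called with NBT, trametinib and the combination. MMP14, a membrane metalloproteinase that cuts SDC1, had 6927, 8119, 3019 and 3442 reads, at -1.21 with trametinib and -1.07 with the combination. MMP2, which MMP14 activates, was at -1.16 and -1.68 in these libraries. ADAM17, a sheddase of syndecans, had 1450, 2192, 1617 and 3463 reads and was called higher with the combination (1.19). TIMP3, an inhibitor of such enzymes, had 40, 15, 54 and 19 reads and was called lower in both libraries with NBT.
Of 8 partners of the syndecan tail, read beside the same shares of all genes, the syntenin relative SDCBP2 was the one called against control. It had 3, 14, 2 and 17 reads and was called higher with NBT and with the combination. Of 7 perlecan partners, read beside the same shares, COL4A2 and ECM1 were called lower with the combination. COL4A2, a basement membrane collagen chain, was at -1.10 (interval -1.18 to -1.02) and ECM1 at -1.02 (-1.31 to -0.74). NID1 rose from 7 to 29 reads with trametinib. TIMP3, SDCBP2 and NID1 are likewise named after their values were seen.

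Among list genes with at least 100 reads in the higher library, the largest log2 ratios to control were those of ligands that heparan sulfate holds. Of 14 ligands tested, NBT called 1 higher and 2 lower, trametinib 1 higher and 5 lower, and the combination 0 higher and 3 lower. Of all genes tested, 2.61, 5.96 and 8.42% were called in either direction in these comparisons. The ligands were chosen with earlier results of these data known. FGFBP1, which releases fibroblast growth factors from the matrix, counted 1143 reads in control, 195 under NBT, 267 under trametinib and 52 under both drugs. FGFBP1 was called lower under each drug alone (-2.60 for NBT, -2.11 for trametinib) and under both (-4.51). THBS1, thrombospondin, fell in the same way, at -1.24, -1.87 and -3.12. FGF1, a fibroblast growth factor, had 79, 47, 609 and 77 reads, so that it was high with trametinib alone (2.93). HBEGF, an EGF receptor ligand, had 147, 395, 40 and 101 reads, the reverse of the GPC1 order for the single drugs, at 1.37 with NBT and -1.88 with trametinib. VEGFA was called lower with trametinib (-1.20) and SLIT2, a guidance protein that binds GPC1, with trametinib (-1.45) and the combination (-1.06).
Of 6 receptors tested, read beside the same shares of all genes, FGFR3 was the one called against control. FGFR3 counted 211 reads in control, 99 under NBT, 652 under trametinib and 121 under both drugs. It was thus lowest with NBT (-1.14) and highest with trametinib (1.61), as GPC1, SDC4 and HSPG2 were, and below control with the combination, as HSPG2 was. FGFR2, with 1265, 773, 2416 and 986 reads, had the same pattern. MET, with 4042, 4768, 3073 and 5644 reads, was instead lowest with trametinib and highest with the combination. FGFR2 and MET were not called against control and are named after their values were seen.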

How the data were processed

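RNA of MIA PaCa-2 cells was measured in 4 libraries, grouped by their titles and treatments. Per the labels, RNA was extracted with TRIzol, cleared of ribosomal RNA with a MicrobExpress kit, which is made for bacterial RNA, and reverse transcribed from random primers. The submitters' processing notes name Bowtie2 2.2.5, RSEM 1.2.8 and hg38. The authors deposited, per gene (16834) and per RefSeq transcript (70268), an expected count (an estimated read number, not normalized), a TPM and an FPKM value. Library sums of 18776212 to 19614763 set the precision.

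Expected counts were rounded to whole reads (53.9% of genes had an estimate that was not whole), scaled to library sums, and compared between libraries in 6 pairs as described with the results. Calls and intervals were tested on simulated data that held counting error only, as the calls assume. Variation between cultures was not simulated, so that test cannot show how reliable the calls are between cultures. A count of 0 was read as fewer than 3 reads. Members and lists were chosen with earlier results of these data known. Named list genes had to be called in a comparison with control with at least 100 reads in the higher library, at most 6 a list, largest ratio first. Calls were recomputed under 11 alternatives and log2 ratios under 6, among them edgeR 4.0.16 TMM factors and exact tests, DESeq2 1.42.0 size factors, the deposited TPM and FPKM with a pseudocount of 0.1, 5 added reads, summed transcript counts and a minimum of 10 reads. Further tools were matplotlib 3.10.9, numpy 2.4.6, pandas 2.3.3 and scipy 1.17.1 under Python 3.11.15, and R 4.3.3. Gene loci and promoters came from RefSeq (GRCh38.p14) and introns from GENCODE v29. No protein sequence was used.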

Additional observations from a re-analysis of the deposited data

How the results depend on the processing

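Of 216 recomputed log2 ratios of members, 206 kept their result, 4 not called moved outside their counting interval, 5 lost a call and 1 gained one. A called ratio kept its result if the call stayed. A ratio not called kept it if it stayed not called and within its counting interval. No called ratio changed sign. Of those not called, 3 changed sign near 0 (1 of SDC1, 2 of GPC6), and 12 of GPC6 crossed a log2 ratio of 1. With trametinib against control, 0 members were called after TMM scaling, DESeq2 scaling or a log2 limit of 2, and 5 without a log2 limit. With the combination against trametinib the count was 0 after TMM scaling or with a limit of 2, and 4 without a limit. With NBT against trametinib it was 0 with a limit of 2 and 5 without. Without a limit, NBT called 3 and the combination 4 against control, and the combination called 4 against NBT, where TPM gave 1. With edgeR's exact test, 0 members were called against control under trametinib, and 0 in the combination against trametinib, at an assumed coefficient of variation between cultures of 0.2 or 0.4, and 0 in NBT against trametinib at 0.4. Over all genes, coefficients of 0.2 and 0.4, a limit of 2 and no limit gave 69, 4, 116 and 5635 calls for NBT (414 by the main rule), 365, 22, 352 and 6915 for trametinib (966), and 547, 51, 401 and 8056 for the combination (1366). The same settings gave 204, 13, 251 and 6079 for the combination against NBT (709), 302, 14, 252 and 7428 for the combination against trametinib (998), and 584, 42, 436 and 7552 for NBT against trametinib (1301). The departure of GPC6 was 0.77 from TPM and 0.48 from FPKM, against 4.44 from reads. The median of the ligand list with trametinib, -0.83, was -0.37 from TPM. That list includes genes with at most 2 reads in any library, whose part in this difference was not tested. No paired analysis was possible because each group has 1 library, and no library could be left out for the same reason. Reads per gene limit GPC6 most, then SDC3.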
